A study of Mus musculus with 2 samples.

Results

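The genes described here encode the parts of the contacts between neighbouring cells: claudins and other tight junction proteins, cadherins, desmosome proteins, gap junction connexins and Epcam, the epithelial cell adhesion molecule. They were taken by gene symbol from the table of 16906 genes, which listed 78 of them. These are 23 claudins, 9 other tight junction genes (Ocln, Tjp1 and F11r among them), 14 classical cadherins, 4 other cadherins, 6 desmosomal cadherins, 6 desmosome plaque genes, 15 connexins and Epcam. Expression was measured by bulk RNA sequencing of luminal epithelial cells sorted from the mammary glands of C57BL/6 mice that were 8 weeks old. The Ctrl library came from miR-200c/141-flox/flox mice without Cre. The CKO library came from K8-CreERT2;miR-200c/141-flox/flox mice, in which the keratin 8 promoter drives a Cre recombinase that tamoxifen switches on. Mice of both genotypes received tamoxifen, and the labels give the time after it as 4 weeks in 1 place and 3 days in another. Only CKO carried the Cre driver, so its effect and that of the deletion cannot be told apart. Each genotype has 1 library, so no difference below has been checked against the spread between mice, and the labels do not say how many mice were pooled.

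Epithelial cells are held together by a belt of junctions below their free surface. Tight junctions seal the space between cells, and the claudins in them decide which ions pass. Adherens junctions join the actin belts of neighbours through E-cadherin, desmosomes join their keratin filaments, and connexins form channels through which small molecules move from cell to cell. The microRNAs miR-200c and miR-141 are best known in epithelia for silencing Zeb1 and Zeb2, repressors of Cdh1 and other junction genes, which is why the level of junction genes bears on a deletion of the cluster.

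The mature microRNAs are shown because the letters of their seeds decide which messages they can pair with. The sequences are from RefSeq (GRCm38.p6) and the capitals mark the seed, bases 2 to 8 from the 5′ end. The first pair belongs to the deleted cluster on chromosome 6, and the other three, on chromosome 4, lie outside it.
miR-200c-3p: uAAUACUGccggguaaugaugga
miR-141-3p: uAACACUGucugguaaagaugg
miR-200b-3p: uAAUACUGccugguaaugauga
miR-429-3p: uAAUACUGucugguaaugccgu
miR-200a-3p: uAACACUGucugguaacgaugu
The seed of miR-200c-3p is also that of miR-200b-3p and miR-429-3p, and the seed of miR-141-3p is also that of miR-200a-3p. The members of a seed group therefore match the same letters in a message, CAGTATT for the group of miR-200c-3p and CAGTGTT for that of miR-141-3p.

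Levels are FPKM, which count fragments per kilobase of transcript and correct for library size, so genes of different length can be compared. The p-values that the authors deposited imply a depth of about 12500000 reads for Ctrl and 11500000 for CKO. Differences are log2 ratios of CKO over Ctrl, computed after adding 0.5 FPKM to each value. A 95% counting interval of the read ratio stands beside them, computed without the added value, so for weak genes it need not be centred on the ratio. It covers counting error only. A gene was counted as higher or lower when the ratio reached 1.5-fold and the interval excluded a ratio of 1. In bulk RNA, fewer cells of a type and less RNA per cell cannot be told apart.

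The junction genes stood at nearly the same levels in both libraries. By the 1.5-fold rule 2 of 78 genes were higher in CKO, Gja1 and Cldn15, against 2.32% of all 16906 genes, and 1 was lower, Cldn2, against 3.09%. Restricted to the 43 genes averaging 1 FPKM or more, the rule left 1 higher and 1 lower, and it gave 2.29% and 3.03% of 11667 genes. These shares of the junction genes, 2.56% higher and 1.28% lower over all 78, lay near or under those of the table. The authors' deposited table called 0 of 78 up and 0 down, against 0.615% and 0.639% of all genes. A deposited false discovery rate of at most 0.001 was found for 15 of 78, a larger share than the 1790 of all 16906 genes. The median log2 ratio of the 78 genes was -0.04, beside -0.03 for all genes. Of the 34 junction genes with a mean of at least 5 FPKM, 28 lay within 1.25-fold (82.4%), beside 86.0% of 8631 such genes in the table, and Gja1 was the 1 gene beyond 1.5-fold. Within these 34 the interval lay above 0 for 8 genes (23.5%) and below 0 for 12 (35.3%), against 19.5% and 24.3% of all genes at that level. These interval shares and the count by false discovery rate depend on read number as well as on the size of a difference. Epcam passed both at 1.04-fold, from 30718 and 29148 reads. The genes compared were not matched for read number.

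The classes differed far more in level than between the libraries. Claudins summed to 3164.5 FPKM in Ctrl and 3098.31 in CKO, 52.0% and 51.5% of the FPKM of all 78 genes. Epcam alone held 19.5% and 20.5%. Desmosome plaque genes summed to 560.2 and 558.11 FPKM, the other tight junction genes to 539.15 and 519.07, and classical cadherins to 482.61 and 451.33. Connexins, at 76.36 and 88.03 FPKM, and desmosomal cadherins, at 72.7 and 64.23, were the smaller classes, and the other cadherins summed to 4.27 and 4.74. The 5 leading genes, Cldn4, Epcam, Cldn3, Cdh1 and Cldn7, were the same in both libraries, in the same order, and held 76.3% of the summed FPKM in Ctrl and 76.2% in CKO.

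**Figure D1:**
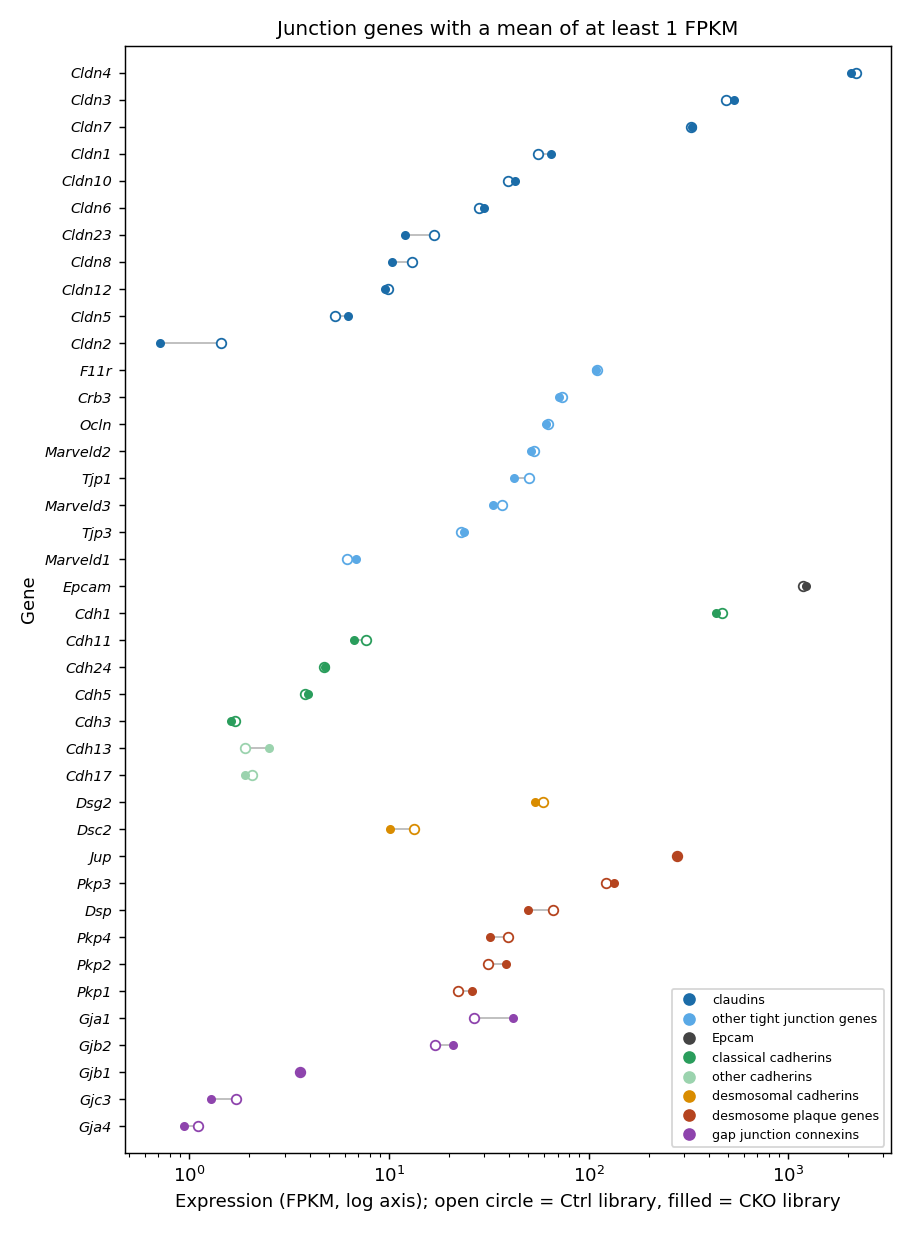
Expression in FPKM (log axis) of 40 junction genes with a mean of at least 1 FPKM, ordered by class and level; the open circle is the Ctrl library and the filled circle the CKO library. The circles of most genes touch, from Cldn4 at 2179.76 and 2053.87 FPKM downward, while Gja1 (26.82 and 41.95) and Cldn2 (1.44 and 0.71) show a wide gap.

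Among the claudins, Cldn4, Cldn3 and Cldn7 made up most of the class. Cldn4, a barrier claudin of simple epithelia (Entrez gene 12740, chr5:134945123-134946934 of GRCm38), was the most abundant of the junction genes, at 2179.76 and 2053.87 FPKM (here and below Ctrl first, then CKO). Its log2 ratio was -0.09, with an interval of -0.10 to -0.07 from 49899 and 43041 reads. Cldn3, its neighbour 39279 bases away and a sealing claudin like it, lay on the other side of 0, at 487.16 and 534.32 FPKM, with a ratio of 0.13 (0.09 to 0.18). Cldn7, which also lies on the lateral membrane below the tight junction, was at 325.24 and 331.11 FPKM, and its interval of -0.03 to 0.08 included 0. The class thus had no common direction: its summed reads gave -0.04 (-0.05 to -0.02), and without Cldn4 they gave 0.09 (0.06 to 0.12).

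The remaining claudins were at 64.66 FPKM or less in both libraries. Cldn1, a claudin needed for the skin barrier, was at 55.63 and 64.66 FPKM, a ratio of 0.22 (0.13 to 0.30). Cldn10, which forms ion-selective pores, was at 39.37 and 42.69 FPKM. Cldn6, known from early epithelia, was at 28.35 and 29.84 FPKM. The intervals of Cldn10 and Cldn6 included 0. Cldn23 was at 16.78 and 12.10 FPKM and had the lowest ratio of the 34 genes at 5 FPKM or more, -0.46 (-0.70 to -0.24). Cldn8, a sealing claudin of the kidney tubule, was at 13.09 and 10.41 FPKM (-0.55 to -0.10), and Cldn12 at 9.94 and 9.59. Cldn5, the claudin of blood vessels, was at 5.36 and 6.22 FPKM, with an interval of -0.20 to 0.64. Both claudins that form cation pores in leaky epithelia passed the 1.5-fold rule at low levels, in opposite directions. Cldn2 was at 1.44 and 0.71 FPKM, from 55 and 25 reads, 1.60-fold lower, a log2 ratio of -0.68 (-1.75 to -0.30). With 1 FPKM added instead of 0.5 it no longer passed. From the deposited p-value of Cldn2 a log2 read ratio of -0.74 follows, closer to 0 than the -1.02 of its FPKM. Cldn15 was at 0.39 and 1.12 FPKM, from 9 and 24 reads, 1.82-fold higher, a log2 ratio of 0.86 (0.39 to 2.83). The other 11 claudins had means under 1 FPKM and at most 16 reads in a library. Of these Cldn34c1 and Cldn34c2 belong to a family of close copies, so their reads may be split between copies.

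The genes of proteins that anchor and shape the tight junction were at moderate levels and 7 of 9 had ratios below 0, with none past 1.5-fold. Of the scaffold genes, which tie claudins to actin, Tjp1 was at 50.34 and 42.30 FPKM, a ratio of -0.25 (-0.32 to -0.19). Tjp3 was at 23.04 and 23.65 FPKM, and its interval of -0.10 to 0.18 included 0. F11r, a junctional adhesion molecule, was at 110.31 and 108.47 FPKM, and Crb3, which sets the apical side of the cell, at 73.35 and 71.33. Ocln, the gene of occludin, was at 62.76 and 61.17 FPKM, with an interval of -0.12 to 0.04. Marveld2, the gene of tricellulin, which closes the corners where cells meet, was at 53.25 and 51.37 FPKM. Its relatives Marveld3 and Marveld1 were at 37.05 and 33.05 and at 6.15 and 6.85 FPKM. Marveld3 had an interval just below 0, -0.31 to -0.02. Reads of Tjp3 could include those of the overlapping gene Apba3, since the strand handling of the counts is not given in the sources used here. Summed over the class, the ratio was -0.07 (-0.10 to -0.04).

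Epcam (Entrez gene 17075, chr17:87635979-87651127), an adhesion protein that marks epithelial cells and binds Cldn7, was at 1189.50 and 1232.98 FPKM. Its log2 ratio was 0.05 (0.03 to 0.07) from 30718 and 29148 reads, a difference larger than counting error and only 1.04-fold. Relative to the 500 genes nearest to it in transcript length it lay at -0.02, on the other side of 0.

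The gene of E-cadherin held most of the FPKM of the classical cadherins in both libraries. Cdh1 (Entrez gene 12550, chr8:106603350-106670247) was at 463.56 and 433.28 FPKM, 96.1% and 96.0% of the FPKM of the classical cadherins. Its ratio of -0.10 (-0.12 to -0.07) was 1.07-fold. Cdh3, the P-cadherin gene known from basal cells, lies 46438 bases from Cdh1 and was at 1.70 and 1.61 FPKM, with an interval of -0.54 to 0.39. Cdh2, the N-cadherin gene that mesenchymal cells use in place of Cdh1, was at 0.15 and 0.27 FPKM from 15 and 25 reads, and the difference was not detectable at this depth (-0.12 to 1.89). Cdh11, a cadherin of mesenchymal cells, was at 7.65 and 6.69 FPKM, and Cdh24 at 4.73 and 4.77. Cdh5, the cadherin of endothelial cells, was at 3.78 and 3.93 FPKM. The other classical cadherins, 8 in number, were under 0.5 FPKM in both libraries. Among these was Cdh7 at 0.42 and 0.20 FPKM, from 30 and 13 reads, chosen for mention after its values were seen. Its interval lay below 0 (-2.14 to -0.10), and it did not reach 1.5-fold with 0.5 FPKM added. Of the cadherins of other kinds, Cdh13, which is anchored in the membrane by a lipid, was at 1.90 and 2.50 FPKM and Cdh17, known from the gut, at 2.06 and 1.91, and both intervals included 0.

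Catenins, other linkers and the nectins, a second family of adhesion receptors at adherens junctions, made up a list of 10 partner genes in the table. Of these, 0 passed the 1.5-fold rule, which few genes pass in the table (2.32% higher and 3.09% lower), and their median ratio was -0.07 beside -0.03 for all genes. Ctnnb1 and Ctnna1, the genes of beta-catenin and alpha-catenin, which link Cdh1 to actin, were the most abundant, at 230.29 and 225.03 FPKM and at 208.53 and 197.67. Of 17 tight junction partners, 0 passed and the median was -0.05. The leading genes there were Lsr, a protein of cell corners, at 101.95 and 110.56 FPKM, and Prkci, a polarity kinase, at 87.12 and 73.10.

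Desmosome genes went both ways, and the plaque genes split within the class. Dsp (Entrez gene 109620, chr13:38151294-38198577), which encodes desmoplakin, the link from the plaque to keratin filaments, was at 66.52 and 49.51 FPKM, a ratio of -0.42 (-0.48 to -0.38). Jup, the gene of plakoglobin, was at 278.34 and 277.69 FPKM, and its interval of -0.04 to 0.03 included 0. Of the plakophilins, which bridge cadherins and desmoplakin, 3 had intervals above 0. Pkp3 was at 122.18 and 134.01 FPKM (0.07 to 0.19), Pkp2 at 31.26 and 38.52 (0.18 to 0.42) and Pkp1 at 22.29 and 26.22 (0.12 to 0.34). Pkp4, which also occurs at adherens junctions, lay below 0, at 39.61 and 32.16 FPKM (-0.39 to -0.21). The class sum of 560.2 and 558.11 FPKM did not show this split, and the summed reads of the class gave -0.08 (-0.10 to -0.05). None of the 6 plaque genes reached 1.5-fold.

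The desmosomal cadherins were those of simple epithelia. Dsg2 was at 58.87 and 53.81 FPKM (-0.19 to -0.07), and Dsc2 at 13.33 and 10.09, a ratio of -0.39 (-0.56 to -0.24). The cadherins of stratified epithelia, Dsg1b, Dsg1c, Dsg3 and Dsc3, lay at 0.19 FPKM or less in both libraries, with at most 10 reads each. Dsg1b and Dsg1c are close copies whose reads may be split between them. All 6 ratios were below 0, and 2 of the 6 intervals excluded 0. Epidermal keratinocyte markers were low as well: the 4 listed genes, Krt1, Krt10, Lor and Flg, summed to 2.52 and 2.76 FPKM. Among 5 desmosome partners, 1 was counted as higher, the keratin gene Krt18 at 6606.79 and 10398.36 FPKM. The other leading partner was Krt8, the keratin gene whose promoter drives the Cre, at 3871.08 and 4476.23.

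**Figure D2:**
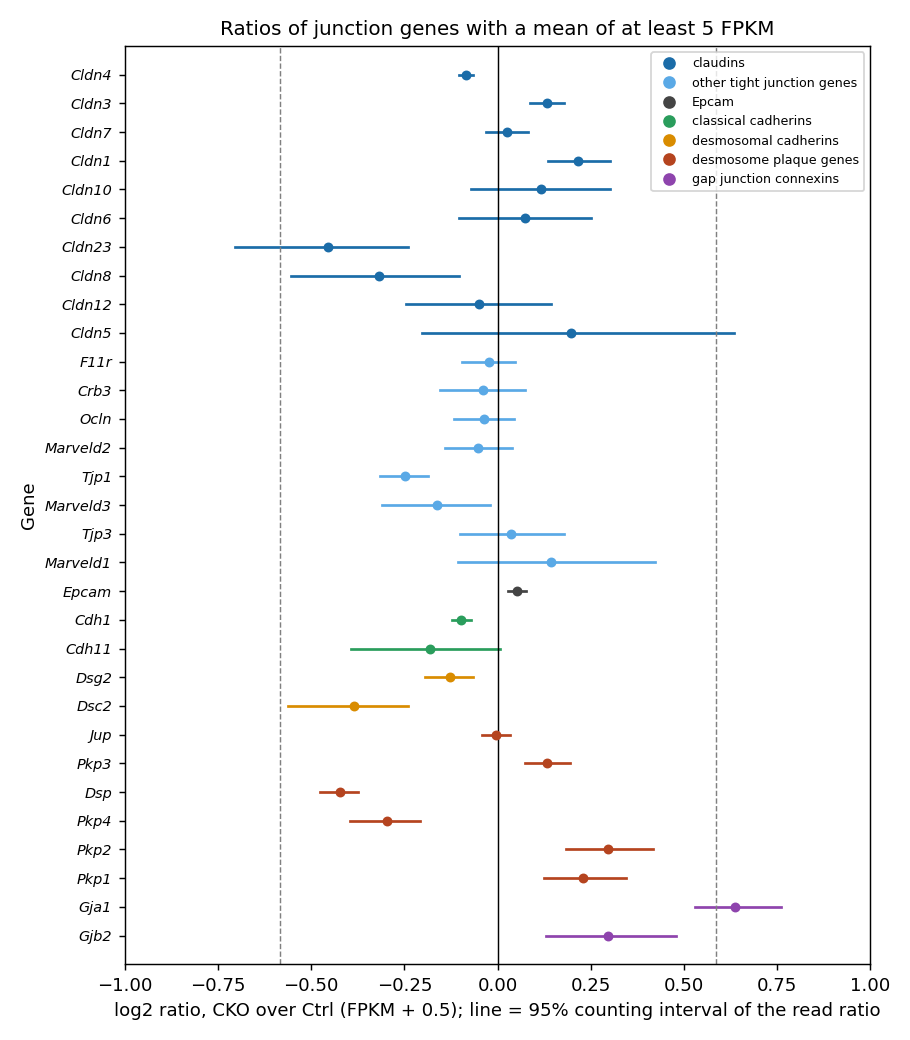
The log2 ratio of CKO over Ctrl with 0.5 FPKM added (points) and the 95% counting interval of the read ratio (lines) for 31 junction genes with a mean of at least 5 FPKM, coloured by class; dashed lines mark 1.5-fold. Gja1 at 0.64 is the only point beyond a dashed line, and Cldn23, Dsp and Dsc2 lie lowest, between -0.46 and -0.39.

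The connexins were led by Gja1, the 1 junction gene of at least 5 FPKM that was counted as higher. Gja1 (Entrez gene 14609, chr10:56377300-56390419), the connexin of myoepithelial cells in the mammary gland, was at 26.82 and 41.95 FPKM, 1.55-fold higher in CKO. Its log2 ratio was 0.64 (0.53 to 0.76) from 1043 and 1494 reads, and Gja1 made up 35.1% of the summed connexin FPKM in Ctrl and 47.7% in CKO. Gjb2, a connexin of luminal cells, was at 17.06 and 21.06 FPKM, a ratio of 0.30 (0.13 to 0.48).

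Gjb1, the connexin that luminal cells add in lactation, was at 3.57 and 3.59 FPKM, with an interval of -0.49 to 0.53, and Gjb6, another connexin of lactation, at 0.23 and 0.15 from 5 and 3 reads. Gja4 and Gja5, connexins of vessels, were at 1.10 and 0.94 and at 0.08 and 0.05 FPKM, and Gjc3 was at 1.71 and 1.29. Connexins with a mean under 1 FPKM had at most 12 reads in a library. Summed reads of the class gave a ratio of 0.31 (0.23 to 0.39), and without Gja1 it was -0.05 (-0.17 to 0.06). Among 6 listed gap junction genes outside the rule, pannexins included, 0 passed 1.5-fold with its interval. The leading ones were Panx1 at 3.53 and 2.61 FPKM and Gje1 at 2.76 and 1.93.

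Markers of basal myoepithelial cells differed in the same direction as Gja1. Of 9 listed markers 6 were counted as higher and 1 as lower, beside 2.32% and 3.09% of all genes. Their summed level was 133.72 FPKM in Ctrl and 246.65 in CKO. Krt14, a keratin gene of basal cells, stood at 44.49 and 90.79 FPKM, and Acta2, which encodes smooth muscle actin, at 33.68 and 66.72. Trp63, the basal transcription factor gene, ran the other way, at 2.96 and 1.05 FPKM. None of the 9 was at 0. Cdh3, the basal cadherin, was at 1.70 and 1.61 FPKM, with an interval of -0.54 to 0.39. Of 8 luminal markers 1 was counted as higher and 1 as lower. The higher gene, the keratin gene Krt18, had a ratio of 0.65. The part of basal cells in the value of Gja1 was not tested.

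**Figure D3:**
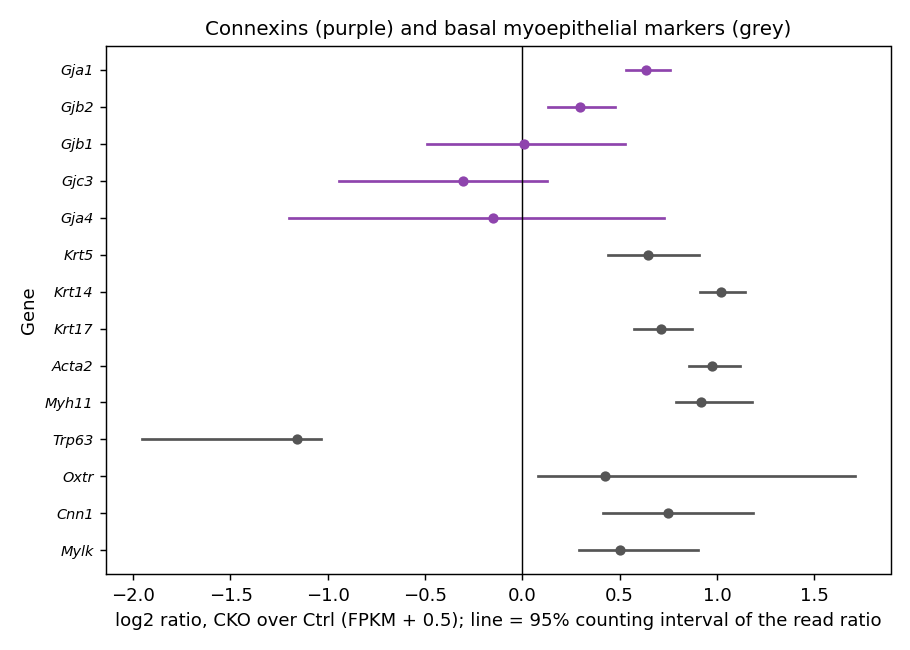
The log2 ratio of CKO over Ctrl with 0.5 FPKM added (points) and 95% counting interval (lines) for 9 basal myoepithelial markers and 5 connexins with a mean of at least 1 FPKM. Gja1 at 0.64 lies beside Krt5 at 0.65 and Krt17 at 0.71, while Trp63 lies at -1.16.

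Markers checked the label of the cells. The luminal keratin genes Krt18, Krt8 and Krt19 were between 1309.36 and 10398.36 FPKM in both libraries. Of 8 luminal markers 1 was higher (Krt18) and 1 lower (Prom1), and the least abundant was the transcription factor gene Elf5 at 21.36 and 17.78 FPKM. Of 7 endothelial markers 0 passed, with sums of 31.18 and 33.52 FPKM, beside the levels of Cdh5 and Cldn5. Of 6 fibroblast markers 2 were lower, with sums of 40.29 and 42.56 FPKM, beside Cdh11. Of 6 myeloid markers 1 was higher (32.9 and 54.41 FPKM summed). That gene was Cd74, at 17.98 and 34.79 FPKM. The ratios of all 6 were above 0, and Ptprc was at 0.21 and 0.23 FPKM. The 3 pericyte, 4 lymphocyte and 3 adipocyte markers in the table had 0 past the rule, summing to 49.18 and 39.87, to 1.07 and 0.64 and to 57.86 and 78.83 FPKM. Nearly all of the pericyte sums came from Notch3, at 46.00 and 37.10 FPKM. The 4 Schwann cell markers also had 0 and summed to 62.41 and 53.54 FPKM, nearly all from Sox10, which mammary epithelium expresses too. Cd3e and Nkg7, lymphocyte genes, were listed at the floor of 0.01 FPKM in CKO.

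Ratios followed transcript length across the whole table, which touches the longer junction genes. Among genes of at least 5 FPKM the median log2 ratio went down with length, from 0.12 for transcripts of 147 to 1101 bases to -0.20 for those of 5857 to 22989 bases. The transcript of Dsp is 9272 bases long, and the 500 genes nearest to it in length had a median of -0.21, beside its own -0.42. For Tjp1, at 6972 bases, that median was -0.17 beside its -0.25. For Cdh1 it was -0.08 beside -0.10, and for Dsg2 -0.12 beside -0.13. Several short genes also lay near their length neighbours. Cldn3, at 1263 bases, was at 0.13 where they had 0.10, and relative to them its interval included 0, as did those of Epcam, Cdh1 and Dsg2. Cldn10 and Cldn6 were at 0.12 and 0.07 where the neighbours had 0.11 and 0.04. Other short genes lay below their neighbours: Cldn4 was at -0.09 where they had 0.07, and Marveld3 at -0.16 where they had 0.07. Cldn7 was at 0.03 where its neighbours had 0.09, and relative to them its interval lay below 0. Cldn23 was at -0.46 where they had 0.07, and Gja1 at 0.64 where they had -0.0031. The cause of the length trend was not tested.

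**Figure D4:**
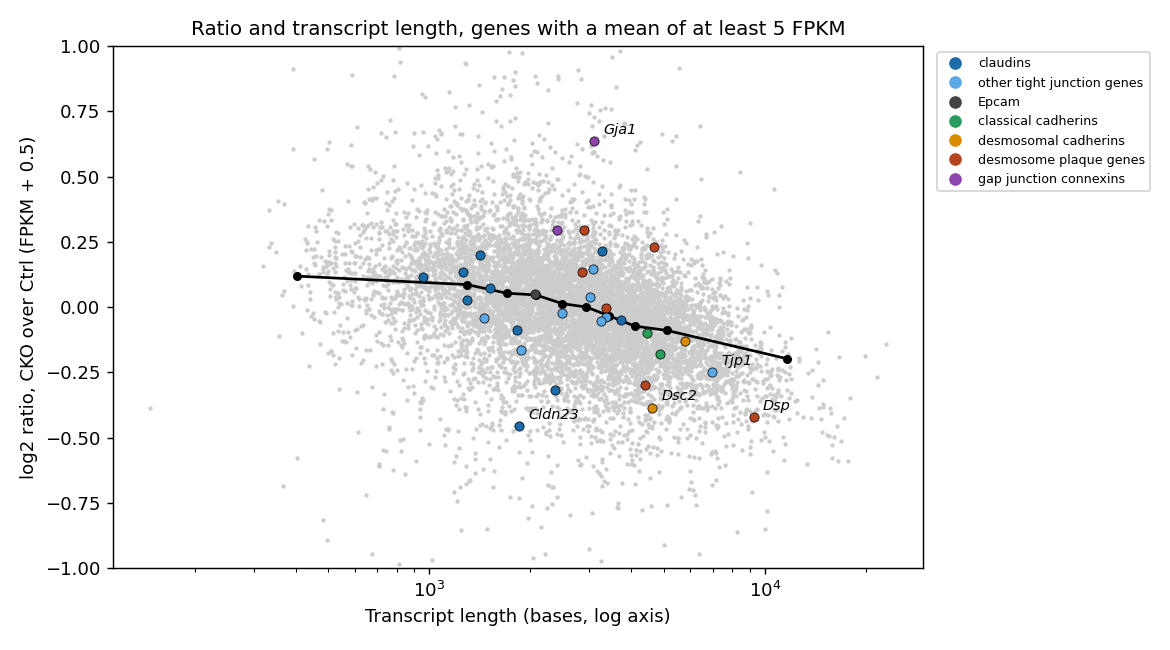
The log2 ratio of CKO over Ctrl with 0.5 FPKM added against transcript length in bases (log axis) for 8631 genes with a mean of at least 5 FPKM (grey; 63 genes beyond 2-fold are not shown), with the median of 10 length bins (black) and 31 junction genes coloured by class. The black line runs from 0.12 to -0.20, Dsp and Tjp1 lie at its long end, and Gja1 lies far above it.

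Matches to the seeds were found in the longest annotated 3' UTR (GENCODE M21, GRCm38) of 17 of 75 junction genes that have one, 22.7%, beside 29.4% of 16190 genes in the table. Of the 34 genes at 5 FPKM or more, 8 held a match, with a median ratio of -0.11, beside -0.02 for the 26 without. Over all genes at that level the medians were -0.06 and 0.01. The 8 genes with a match also had longer 3' UTRs, a median of 2263 bases beside 957. The genes with a match stood at both ends: Gja1 had the highest ratio of the 34, with 2 matches for miR-141-3p, and Cldn23 the lowest, with 1 for miR-200c-3p. Cldn1 and Cldn6, with a match for miR-141-3p each, lay at 0.22 and 0.07. Ocln, Cdh11, Pkp4 and Dsc2, with a match for miR-200c-3p each, lay at -0.04, -0.18, -0.30 and -0.39. The match of Pkp4 lies in exon 20 of 22, so the stretch read as its 3' UTR runs over more than 1 exon. Whether that stretch is coding sequence in other transcripts of Pkp4 was not checked. The sites of 4 genes are shown, with the match in capitals, since they are the places where the deleted microRNAs could pair. Each lies in the 3' UTR, and the coordinates are those of the match.
Gja1, miR-141-3p, chr10:56389178-56389184, plus strand: aacattcCAGTGTTtaaaaac
Gja1, miR-141-3p, chr10:56389618-56389624, plus strand: attcacaCAGTGTTcaaattt
Cldn1, miR-141-3p, chr16:26357264-26357270, minus strand: tgggagtCAGTGTTtcagcct
Cldn23, miR-200c-3p, chr8:35825130-35825136, minus strand: gaacgtaCAGTATTctaagtt
Ocln, miR-200c-3p, chr13:100498646-100498652, minus strand: ctatctcCAGTATTgaagcat
The sites of Gja1 lie in exon 2 of 2, that of Cldn1 in exon 4 of 4, that of Cldn23 in its only exon and that of Ocln in exon 9 of 9. A match is a string of letters and not a measured site, and the seed of miR-141-3p is shared by miR-200a-3p, whose gene was not deleted.

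The repressors that link the cluster to junction genes were scarcely expressed. Zeb1 was at 0.31 FPKM in both libraries, from 21 and 19 reads, with an interval of -0.99 to 0.95. Zeb2 was at 0.24 and 0.40 FPKM, from 18 and 27 reads (-0.20 to 1.66). With 0.5 FPKM added, genes this weak need a rise in FPKM larger than 1.5-fold to pass the rule. The most abundant of 6 listed repressors were Snai1 at 1.43 and 1.89 FPKM and Snai2 at 1.04 and 0.81, and 0 of 6 passed the 1.5-fold rule. On the side of epithelial regulators, 1 of 10 was counted as lower and 0 as higher, beside 3.09% and 2.32% of all genes. Their ratios were below 0 for 8 of 10, beside 9155 of all 16906 genes. The median was -0.20, beside -0.03 for all genes. Grhl3, a grainyhead factor of epithelial barriers, was the lower gene, at 4.35 and 2.60 FPKM, and its relatives Grhl1 and Grhl2 had ratios of -0.36 (-0.48 to -0.26) and -0.39 (-0.56 to -0.25). The most abundant regulators, Elf3 and Klf4, had ratios of 0.15 and 0.20, the only 2 above 0.

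Zeb and Snail factors bind E-boxes, and the promoters of the most abundant junction genes are shown with the E-boxes CAGGTG and CACCTG, each the reverse complement of the other, in capitals. RefSeq promoter windows (GRCm38.p6) were matched for 48 of 78 junction genes. In the 250 bases before the start, 14 of the 48 held such an E-box, 29.2%, beside 19.8% of 13252 genes of the table, where a gene with several annotated starts counted if any of its windows held one. Of 32851 windows, 17.2% held one. Among the matched junction genes at 5 FPKM or more, those with such an E-box were Cldn4, Epcam, Cldn6, Cldn7, Crb3, F11r, Gjb2, Ocln, Pkp4 and Tjp3. The share of all genes at that level was not computed, so these names give no measure of an excess. No window was matched for Cdh1, so its promoter was not examined.
Cldn4, chr5:134946935-134947184, minus strand: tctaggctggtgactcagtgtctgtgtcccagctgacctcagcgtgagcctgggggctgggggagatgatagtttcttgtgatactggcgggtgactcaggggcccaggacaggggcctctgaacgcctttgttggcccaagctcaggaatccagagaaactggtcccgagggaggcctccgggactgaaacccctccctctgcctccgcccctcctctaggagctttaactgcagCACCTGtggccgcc
Epcam, chr17:87635729-87635978, plus strand: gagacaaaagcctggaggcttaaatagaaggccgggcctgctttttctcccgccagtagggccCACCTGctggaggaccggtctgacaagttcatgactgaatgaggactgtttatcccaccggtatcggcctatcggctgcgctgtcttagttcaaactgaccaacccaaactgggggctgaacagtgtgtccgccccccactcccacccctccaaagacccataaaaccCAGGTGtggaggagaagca
Cldn4 had 1 E-box in this window and Epcam 2, and these genes stood at -0.09 and 0.05. The windows of Gja1, Dsp and Cldn3 held none, which says only that these letters are not in those 250 bases.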

How the data were processed

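The members and lists were chosen with earlier results of these data known. Of the 78 genes, 3 are counted in the totals and not reported by name here. Per the submitters' processing notes, HISAT, Bowtie2, RSEM and mm10 were used, without versions or roles. The authors deposited 1 value per gene and library, normalised for transcript length and library size (FPKM), down to a floor of 0.01. The header names no unit, which was read from the values: times kilobases of length, the columns total 999609 (Ctrl) and 999909 (CKO). The log2 fold change in the authors' deposited table is the log2 of CKO over Ctrl FPKM. The deposited p-value and false discovery rate compare the reads of 1 library with those of the other, and no p-value was computed here.

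Reads were estimated with Python 3.11.15 and SciPy 1.17.1. For genes at the floor in Ctrl the deposited p-values were 2 times a power of the CKO share of reads, 0.4779, and 62 of 62 tested genes returned whole reads within 0.01. The totals were fitted to the p-values of 8596 genes, which they returned with a median error of 0.0769 in log10 units. For 42 of 43 junction genes at 1 FPKM or more, the p-value implied a log2 read ratio within 0.1 of the FPKM ratio. Intervals are exact conditional binomial (Clopper-Pearson). They cover counting error only, and not the spread between mice. Since PCR copies are not separate molecules, they can be too narrow even for counting error.

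Genes named were those with a mean of at least 5 FPKM, those past the 1.5-fold rule, the leading members of each class and a fixed list; further genes were named after their values were seen. Identifiers of 78 of 78 genes matched RefSeq, and 9 of the 34 at 5 FPKM or more overlap another gene there. Seeds were matched as 7-base strings. Alternatives were the added value, a minimum level, scaling, the fold and the authors' calls.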

Additional observations from a re-analysis of the deposited data

How the results depend on the processing

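With 1 library per genotype, no library could be left out, and no paired analysis was possible because each genotype has 1 library. Counts of junction genes past 1.5-fold were 2 higher and 1 lower. The number higher was 1 with a mean of at least 1 FPKM required and 0 at 2-fold or by the authors' calls. It was 3 without the interval. The number lower was 2 with 0.1 FPKM added, 0 with 1 FPKM added, 3 without the interval, and 0 at 2-fold or by the authors' calls. The median log2 ratio of all 78 genes ran from -0.0457 to -0.0075 over the alternatives run. With 0.1 FPKM added, the median of desmosomal cadherins went from -0.1124 to -0.2945 and that of connexins from -0.0766 to -0.241, and that of classical cadherins went from -0.0277 to 0.0021 with trimmed means and to 0.0347 relative to length. The log2 ratios of summed reads depended on the leading gene of a class and on transcript length. Before any alternative they were -0.0973 for classical cadherins, -0.17 for desmosomal cadherins and -0.0781 for plaque genes. Scaling by trimmed means, which moved all ratios by 0.03, gave -0.009 for claudins, -0.0408 for the other tight junction genes, -0.0674 for classical cadherins, -0.0482 for plaque genes and 0.0817 for Epcam. Summing FPKM in place of reads gave -0.0054 for plaque genes and 0.21 for connexins. Without the gene with most reads, claudins (Cldn4 left out) reversed to 0.0856 and connexins (Gja1) to -0.0549, plaque genes (Jup) stood at -0.13 and desmosomal cadherins (Dsg2) at -0.41; Epcam, a class of 1 gene, gave no value. Relative to genes of similar length, an alternative chosen after seeing the data, Epcam reversed to -0.0166, and the sums were -0.11 for claudins, -0.0184 for other tight junction genes, -0.016 for classical cadherins, -0.0522 for desmosomal cadherins and -0.006 for plaque genes. The cause of these shifts was not tested. Genes under 1 FPKM, 35 of 78, had at most 30 reads in a library, so differences there were mostly not detectable.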
